A study of Drosophila melanogaster with 2 samples.

Results

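Binding of Lola-RJ-GFP was examined at 33 genes of mesoderm and muscle, taken by name from the 13945 coding genes of the 6 chromosome arms of Drosophila melanogaster. The 33 were 14 regulators of mesoderm and muscle and 19 genes for proteins of the sarcomere. All 33 symbols matched a gene of the annotation. The study was a ChIP-seq experiment on whole embryos of both sexes, aged 0 to 12 h, from a transgenic line that stably expressed the J isoform of Lola with GFP at its C terminus, and the precipitation used an antibody against GFP. The embryos formed 1 group of 2 biological replicates, numbered 1 and 3, and no other genotype, stage or mock precipitation was used here. Muscle cells were not separated from other cells of the embryo.

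Lola (longitudinals lacking) is a BTB zinc-finger transcription factor whose splice forms carry different zinc fingers. It is best known from the guidance of axons. In the fly embryo the bHLH protein Twist sets up the mesoderm, FGF signalling spreads it under the ectoderm, and identity factors and Mef2 then direct the formation of muscle. Fused myotubes later assemble sarcomeres, in which myosin thick filaments slide along actin thin filaments that are anchored in Z-discs. Several of the regulators, pnt, kn and zfh1 among them, also act in the nervous system or in other tissues, and Tm1, Actn and Msp300 have roles outside muscle too.

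The binding data were lists of peaks, each with a summit, the single base taken as its position, and a signal value on the authors' own scale. The IDR-thresholded list (IDR, irreproducible discovery rate) held 6154 peaks, which were the 6154 strongest of a list of 30000 called on both replicates pooled. Each replicate also had its own list of 30000 peaks. A summit was counted at a promoter where it stood within 500 bp of the start site (TSS) of any coding transcript, and in a locus where it fell inside the gene or its 2 kb flanks. Long genes take in more summits by their size alone, so the genome was split into 10 classes of gene length with equal numbers of genes, and each member was read against its class. Read depth is unknown for all lists, and a gene without a summit is one with no peak in the list, not one shown to be free of the protein. With 1 group and genes chosen by name, no test was run, and the comparisons below describe these lists. The genes were chosen with earlier results of these data known.

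The DNA under strong summits of each group of genes, 1 per gene, is shown first, since A/T-rich sequence was a feature of these sites that the choice of genes did not use. Each line is a window centred on a summit, dm6 plus strand, read from the RefSeq copy of the assembly, and capitals mark unbroken runs of 8 or more A or T bases. The first 6 come from regulators, at a stumps promoter (chr3R:14591258-14591358), upstream of bin (chr3L:6989275-6989375), at the org-1 promoter (chrX:8455377-8455477), in an intron of zfh1 (chr3R:30781731-30781831), in an intron of pnt (chr3R:23326441-23326541) and at an htl promoter (chr3R:18049725-18049825). The other 4 come from sarcomere genes, in an intron of Msp300 (chr2L:5145699-5145799) and at promoters of sls (chr3L:2115843-2115943), Tm1 (chr3R:15281040-15281140) and Act87E (chr3R:13425545-13425645).
stumps: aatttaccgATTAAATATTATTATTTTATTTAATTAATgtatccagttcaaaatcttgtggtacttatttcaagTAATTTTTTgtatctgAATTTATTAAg
bin: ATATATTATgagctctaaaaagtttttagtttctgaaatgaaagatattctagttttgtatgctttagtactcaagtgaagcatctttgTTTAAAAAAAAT
org-1: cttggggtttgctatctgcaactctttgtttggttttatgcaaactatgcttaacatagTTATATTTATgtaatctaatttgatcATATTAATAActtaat
zfh1: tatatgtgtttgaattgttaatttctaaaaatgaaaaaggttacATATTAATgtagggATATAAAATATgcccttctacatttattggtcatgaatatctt
pnt: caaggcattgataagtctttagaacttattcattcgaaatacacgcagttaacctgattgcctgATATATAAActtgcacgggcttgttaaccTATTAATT
htl: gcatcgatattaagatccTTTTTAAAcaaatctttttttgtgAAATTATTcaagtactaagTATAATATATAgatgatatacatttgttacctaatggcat
Msp300: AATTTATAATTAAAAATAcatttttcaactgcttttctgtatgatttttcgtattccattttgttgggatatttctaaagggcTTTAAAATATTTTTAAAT
sls: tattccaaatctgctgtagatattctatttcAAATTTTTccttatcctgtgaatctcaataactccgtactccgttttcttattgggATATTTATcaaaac
Tm1: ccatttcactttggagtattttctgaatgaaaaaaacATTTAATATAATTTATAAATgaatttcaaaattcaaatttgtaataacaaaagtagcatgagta
Act87E: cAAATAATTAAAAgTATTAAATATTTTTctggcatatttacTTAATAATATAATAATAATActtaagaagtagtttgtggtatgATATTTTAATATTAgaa

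These windows were 65.3% to 84.2% A or T, with the lowest value at pnt and the highest at Act87E. Over all 36 summits in regulator loci the median A/T content of the window was 73.3%, against 55.4% in windows 600 bp to either side. Over the 12 summits in sarcomere gene loci it was 66.3%, against 60.9% to either side. All 6154 IDR-thresholded summits had a median of 71.3%, against 56.4%. Windows in member loci were thus richer in A/T than the DNA beside them, as were those of the whole list. An A/T run of 8 or more bases was present in 31 of 36 regulator windows (86.1%), in 11 of 12 sarcomere windows (91.7%) and in 84.1% of all windows. The longest such run in a member window had 50 bases, in an intron of pnt, and the run at the stumps promoter had 29.

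Short motifs were searched in the same windows on both strands. CANNTG, the E-box core read by bHLH proteins such as Twist and Nautilus, was found in 10 of 36 regulator windows (27.8%) and 5 of 12 sarcomere windows (41.7%), against 31.3% of all 6154. CATATG, a form of the E-box that Twist favours, was in no member window, against 3.95% of all windows. For Mef2 only a palindromic form of its site was searched, with C as first base, G as last and any bases in the middle. This form was in no member window, against 2.05% of all windows. Forms with other end bases were not searched, so the count does not show that Mef2 sites were absent. At shares this low, few matches would be found in so few windows. GAGAG, read by GAGA factor, was in 3 regulator windows and no sarcomere window, against 7.3%. TATAAA was in 11 regulator windows (30.6%) and 4 sarcomere windows (33.3%), against 28.5%, and CGATA in 3 and 2, against 12.9%. TATCGATA, the DRE core, which contains a CGATA match, was in none, against 1.2%. CATATG is also a CANNTG match, so these counts overlap. N stands for any base, and a match is not shown to be a site of any factor.

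Nearly all regulators had a summit in their locus and most sarcomere genes had none. In the IDR-thresholded list 13 of 14 regulators (92.9%) had at least 1 summit, as did 6 of 19 sarcomere genes (31.6%). Over all coding genes the share was 38.2%, and the mean share of the members' own length classes was 52.9% for the regulators and 50.5% for the sarcomere genes. The regulators thus stood above, and the sarcomere genes below, genes of their length. Regulators held 36 summits in 381.2 kb of locus, or 0.945 per 10 kb, and sarcomere genes 12 in 497.5 kb, or 0.241 per 10 kb, against 0.596 over the loci of all coding genes. The gene pnt alone held 11 of the 36, and without it the regulators had 0.778 per 10 kb. Each of the 48 summits was counted in 1 member only.

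**Figure D1:**
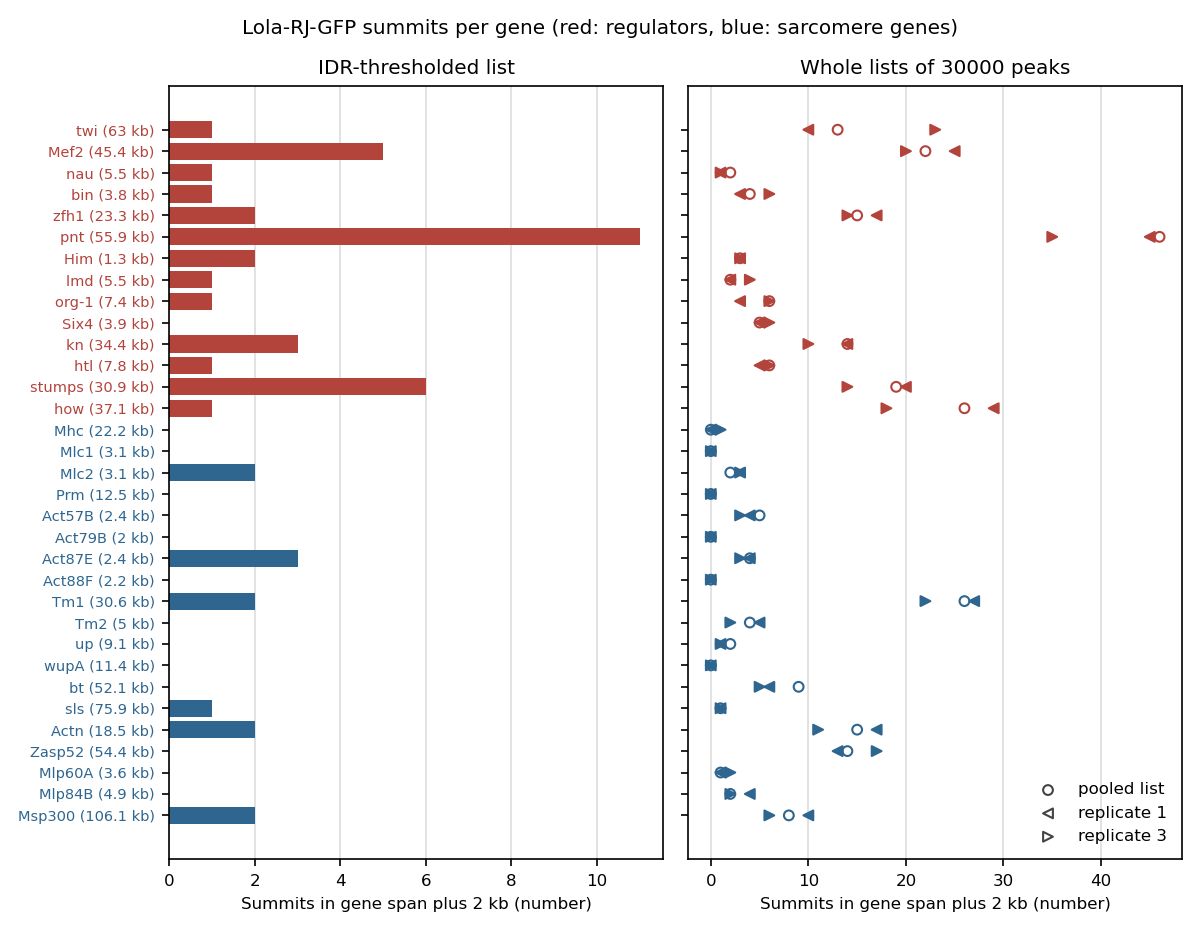
Number of Lola-RJ-GFP summits in the gene span plus 2 kb for the 14 regulators (red) and 19 sarcomere genes (blue), with gene length in brackets. Left, bars for the IDR-thresholded list; right, circles for the pooled list and left- and right-pointing triangles for the lists of replicates 1 and 3. pnt has the longest bar, at 11, and 13 of the 19 sarcomere genes have no bar.

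The promoters alone did not separate the groups. A promoter summit in the IDR-thresholded list was present at 3 of 14 regulators (21.4%) and 5 of 19 sarcomere genes (26.3%), against 22.9% of all coding genes, which is near the background for both. Their length classes averaged 28.5% and 28.6%. The 3 regulators were stumps, org-1 and htl, with summits 312, 358 and 409 bp upstream of a TSS. The 5 sarcomere genes were Act87E, Tm1, sls, Actn and Msp300, with their strongest promoter summit 388, 281, 282, 220 and 391 bp upstream. At Actn the summit lay 220 bp from a start site of usp as well, a nuclear receptor gene. These counts followed the width of the window: within 250 bp of a TSS they were 0 regulators and 3 sarcomere genes, against 18.2% of all coding genes, and within 1000 bp 6 and 5, against 25.7%.

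The groups differed in where their summits lay. Of the 36 summits in regulator loci, 23 (63.9%) were in introns of the gene itself, 15 of them in later introns and 8 in first introns. Another 5 lay in the flank upstream of the gene, 3 at its own promoters, 4 at a neighbouring gene's promoter and 1 in a 5' UTR. Of the 12 summits in sarcomere gene loci, 7 were at the gene's own promoters, 3 at a neighbour's promoter, 1 in the flank downstream and 1 in an intron, at Msp300. Promoters of any coding gene took 19.4% of the regulators' summits and 83.3% of those of the sarcomere genes, against 40.4% of all 6154. Elsewhere in the span of a coding gene lay 66.7% and 8.33%, against 36.6% of all 6154. The median distance to the gene's nearest TSS was 2236.5 bp in regulator loci and 389.5 bp in sarcomere gene loci. These shares count summits, not genes. Many of the intronic summits were in pnt, which held 11 of the 36. The 7 own-promoter summits of sarcomere genes came from 5 genes, and those of Act87E and of Tm1 each shared an interval.

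**Figure D2:**
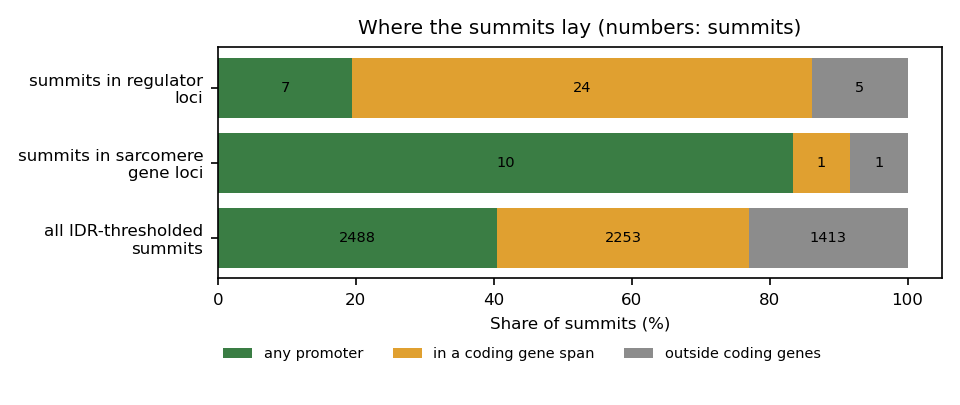
Share of IDR-thresholded summits at any coding promoter (within 500 bp of a TSS, green), elsewhere in the span of a coding gene (yellow) and outside coding genes (grey), for the 36 summits in regulator loci, the 12 in sarcomere gene loci and all 6154. Numbers in the bars count summits, and the green part is 7 of 36 for regulators and 10 of 12 for sarcomere genes.

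Of the 11 transcription regulators 10 had a summit in their locus, against 38.2% of all coding genes. They held 28 summits in all, 11 of them at pnt. Among the transcription regulators at the head of mesoderm formation, twi had a weak and distant summit and Mef2 had several. The twi gene (chr2R:22985374-23048325, plus strand), the bHLH factor that specifies mesoderm, had 1 summit with a signal of 244. It ranked 3398 of 6154, with ranks of 4516 in replicate 1 and 2927 in replicate 3. It lay 17951 bp downstream of the TSS of the longest annotated transcript, in an intron of that transcript, and 42783 and 42997 bp upstream of the start sites of the short transcripts. In its length class 60.5% of genes had as many summits or more. Both the class and the summit rest on that long transcript: without it twi spans 2.2 kb and has no IDR-thresholded summit in its locus, which leaves 12 of 14 regulators with one.

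Mef2 (chr2R:9913496-9958858, minus strand), the MADS-box factor of muscle differentiation, had 5 summits. The strongest, with a signal of 2844 and rank 23 (37 in replicate 1 and 17 in replicate 3), was 1053 bp upstream of Mef2 but only 167 bp from a start site of its neighbours Pal1 and Pdrg1. Within Mef2 there were 2 summits in 1 interval in the first intron, with signals of 568 and 324, another in a first intron with a signal of 209, and a summit in the 5' UTR with a signal of 205. Their ranks ran from 1178 to 4146 in the pooled list, 1044 to 4273 in replicate 1 and 1440 to 4570 in replicate 3. Of the genes in its length class 12.7% had as many summits or more.

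The ETS factor gene pnt, which carries out the response to Ras and MAP kinase signals, held the most summits of any member. Its 11 summits in 55.9 kb (chr3R:23290231-23346167, minus strand) were matched or exceeded in 1.87% of the genes of its length class. The strongest lay in an intron 12176 bp from the nearest pnt TSS, with a signal of 1029 and ranks of 421 in the pooled list, 630 in replicate 1 and 330 in replicate 3. The others had signals from 200 to 596. None lay in a promoter, and the nearest to a TSS was 866 bp upstream of it. The summit with a signal of 544 ranked 1011 in replicate 1 and had no partner within 100 bp in replicate 3. A weaker pooled summit in the same interval, with a signal of 90.7, did have a replicate 3 partner, at rank 1543.

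The remaining transcription regulators had between 0 and 3 summits. The forkhead gene bin (biniou), which acts in the visceral mesoderm, had 1 strong summit 1297 bp upstream, with a signal of 1520 and ranks of 184 in the pooled list, 144 in replicate 1 and 222 in replicate 3. The zinc-finger homeodomain gene zfh1 had a summit of signal 1109 in an intron 1477 bp upstream of an internal TSS (rank 366, and 427 and 334 in the replicates) and a weak one of signal 172 in its first intron. The T-box gene org-1 had its promoter summit at a signal of 1178 (rank 319, and 347 and 296). These sites were strong in both replicates.

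The inhibitor of Mef2 activity Him, a gene of 1.3 kb on X, had 2 summits 745 and 1763 bp upstream, with signals of 522 and 430, and 8.10% of genes of its length class had as many or more. Collier (kn), the COE factor that gives a muscle its identity, had 3 summits. Those in its introns had signals of 474 and 211, and the weakest, of 152, stood 32 bp from the TSS of BEAF-32, an insulator protein gene, beyond the 3' end of kn. The MyoD-family gene nau had 1 intronic summit of signal 368 and ranks of 3274 in replicate 1 and 1623 in replicate 3. The zinc-finger gene lmd, active in fusion-competent myoblasts, had 1 summit of signal 188 at 549 bp upstream, just outside the promoter window. Six4, a homeodomain factor gene of the somatic mesoderm, had none in the IDR-thresholded list and was 3854 bp from the nearest. Its strongest summit in the pooled list stood 68 bp upstream of a TSS with a signal of 72.0 and rank 11371, and ranked 27322 in replicate 1 and 10981 in replicate 3.

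The FGF receptor gene and the gene of its adaptor each had a promoter summit, as did 22.9% of all coding genes. The genes of the FGF ligands, pyr and ths, had none at their promoters and 2 and 6 summits in their loci. The gene for the adaptor stumps had 6 summits in its 30.9 kb and flanks, and 8.75% of the genes of its length class had as many or more. The strongest was 312 bp upstream of an internal TSS, with a signal of 2069, and ranked 78 in the pooled list, 67 in replicate 1 and 93 in replicate 3. Those in its introns had signals of 422, 299 and 223, and those of 651 and 148 stood at the promoters of its neighbours CG14853 and CG7987. The FGF receptor gene htl had a single summit 409 bp upstream of an internal TSS, with a signal of 808 and ranks of 672 in the pooled list, 829 in replicate 1 and 562 in replicate 3. The gene how, for an RNA-binding protein needed in muscle and tendon cells, had 1 intronic summit of signal 314 at rank 2561, and 25 further weaker summits in the rest of the pooled list.

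**Figure D3:**
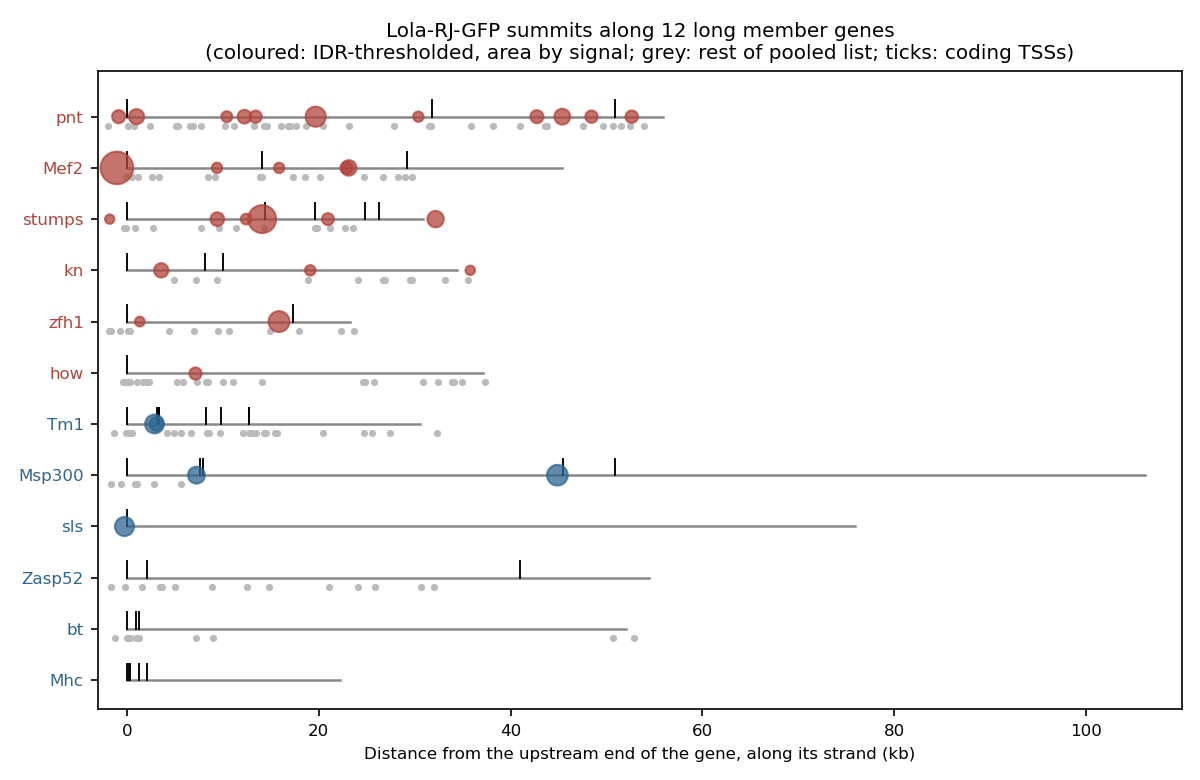
Summits along 12 long member genes, by distance in kb from the upstream end of the gene along its strand (regulators in red, sarcomere genes in blue). Coloured points are IDR-thresholded summits with area growing with signal, grey points the weaker summits of the pooled list, and vertical ticks coding TSSs. The 11 summits of pnt spread over the gene, whereas sls has 1 at its start and Mhc none.

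Of the 4 thick-filament genes 1 had a summit in its locus, against 38.2% of all coding genes. Mhc, which encodes the heavy chain of muscle myosin in a span of 22.2 kb (chr2L:16766566-16788766), had none, and the nearest IDR-thresholded summit was 23325 bp from the gene. In its length class 60.5% of genes had a summit. Mlc1, the essential light chain gene, and Prm, the paramyosin gene, also had none, with the nearest at 20911 and 11562 bp. In their length classes 58.0% and 46.5% of genes had none either. The regulatory light chain gene Mlc2 had 2, with signals of 238 and 192, but these stood 366 and 404 bp from a start site of its neighbour Rsod and 3710 and 2940 bp from that of Mlc2.

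Among the thin-filament genes, 2 of 8 carried summits in their locus, against 38.2% of all coding genes. Act87E, a larval body-wall muscle actin gene of 2.4 kb (chr3R:13425983-13428375), had 3, a number reached by 2.22% of its length class. Those at its promoter were 388 and 181 bp upstream of the first of its start sites, in 1 interval, with signals of 712 and 160. Another of 333 lay beyond the 3' end, 2530 bp downstream of the same start site. The strongest ranked 829 in the pooled list, 800 in replicate 1 and 917 in replicate 3. Tm1, which encodes muscle and cytoplasmic tropomyosins, had 2 summits in 1 interval 281 and 75 bp upstream of an internal TSS, with signals of 883 and 431. The stronger ranked 579 in the pooled list, 604 in replicate 1 and 582 in replicate 3.

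The other actin genes, Act57B, Act79B and Act88F, had no IDR-thresholded summit, and neither did the tropomyosin gene Tm2, the troponin T gene up or the troponin I gene wupA. The nearest summits were 50849 bp from Act57B, 23158 bp from Act79B, 14208 bp from up, 12553 bp from wupA, 11954 bp from Act88F and 5089 bp from Tm2. Act57B and Act87E are both actin genes of larval muscle, and their counts were 0 and 3 in this list. In the length class of both, 60.8% of genes had none. In the whole pooled list the counts were 5 for Act57B and 4 for Act87E. The 3 IDR-thresholded summits of Act87E lay outside the gene span, and its 1 weaker summit in the pooled list lay inside. Actin genes are near-identical in their coding sequence, and how reads were assigned among them was not tested.

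The giant and Z-disc proteins gave a mixed picture. sls, the gene for the titin-related protein Sallimus, spans 75.9 kb and had a single summit, 282 bp upstream of its TSS, with a signal of 907 and ranks of 544 in the pooled list, 590 in replicate 1 and 542 in replicate 3. Projectin (bt), 52.1 kb on the small arm 4, had none, and the nearest was 14485 bp away. Msp300, the nesprin gene that positions muscle nuclei, had 2 in 106.1 kb. Its intronic summit was 637 bp upstream of an internal TSS, with a signal of 1089 and ranks of 383 in the pooled list, 397 in replicate 1 and 383 in replicate 3, and its promoter summit had a signal of 694.

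Of the Z-disc genes, Actn (alpha-actinin) had 2 summits of signal 328 and 161. The stronger was 178 bp from a start site of its neighbours usp or CG4313 and 821 bp downstream of an Actn TSS, and the weaker ranked 7470 in replicate 1 and 4365 in replicate 3. Zasp52, of 54.4 kb, had none, but its strongest summit in the pooled list had a signal of 139 at rank 6191, just past the end of the IDR-thresholded list at 6154. Mlp60A and Mlp84B, genes of muscle LIM proteins, had none, and the nearest summits were 5782 and 3815 bp away.

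The median signal was close in the 2 groups, and strong peaks made up a larger share at sarcomere genes. The median was 373 over the 36 summits in regulator loci and 382 over the 12 in sarcomere gene loci, against 268 over all 6154. Among the 1000 strongest peaks were 8 of the 36 in regulator loci (22.2%) and 5 of the 12 in sarcomere gene loci (41.7%), against 16.2% of all 6154. Both replicates held 31 of the 36 regulator summits (86.1%) and 11 of the 12 sarcomere summits (91.7%) within 100 bp among their own 6154 strongest, against 71.3% of all IDR-thresholded summits. The remaining sarcomere summit was the weaker one of Actn, which ranked lower in replicate 1.

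**Figure D4:**
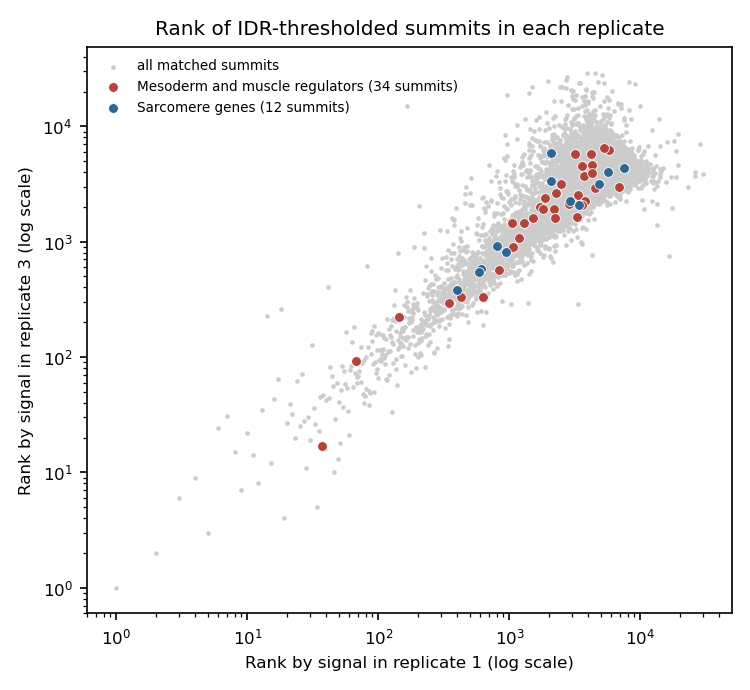
Rank by signal in replicate 1 (horizontal) and replicate 3 (vertical), both on log axes, of IDR-thresholded summits matched within 100 bp; grey points are all matched summits. The 34 matched summits in regulator loci (red) and 12 in sarcomere gene loci (blue) run along the diagonal, led by the summit next to Mef2 at ranks 37 and 17.

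The difference between the groups was present in each replicate. Taking the 6154 strongest peaks of replicate 1 alone, 13 regulators and 6 sarcomere genes had a locus summit, against 37.7% of all coding genes. With those of replicate 3 alone the numbers were 13 and 7, against 38.4%. At promoters, replicate 1 gave 4 regulators and 4 sarcomere genes (23.0% of all coding genes), and replicate 3 gave 4 and 5 (22.3%). The additional regulator promoters were those of lmd in replicate 1 and how in replicate 3, the sarcomere promoter without a summit in replicate 1 was that of Actn, and the additional sarcomere locus in replicate 3 was that of Zasp52.

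With weaker peaks included, regulators again had more summits per length than sarcomere genes. In the whole pooled list all 14 regulators and 13 of 19 sarcomere genes (68.4%) had a locus summit, against 64.7% of all coding genes and length-class means of 75.1% and 74.5%. Regulators held 183 summits, or 4.80 per 10 kb, and sarcomere genes 93, or 1.87 per 10 kb, against 2.67 over all genes. The weaker summits alone, those beyond the IDR-thresholded list, came to 3.86 per 10 kb in regulator loci, 1.63 in sarcomere gene loci and 2.07 over all genes. Of the 93, 92 were distinct, since 1 weak summit counted for both Tm1 and its neighbour Tm2. Promoter summits were present at 9 regulators (64.3%) and 10 sarcomere genes (52.6%), against 49.9%, with length classes at 61.3% and 61.0%. The whole list of replicate 1 gave locus summits at 14 regulators and 13 sarcomere genes, against 65.4% of all coding genes, and promoter summits at 10 and 10, against 50.6%. The whole list of replicate 3 gave locus summits at 14 and 14, against 69.6%, and promoter summits at 11 and 8, against 51.0%.

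**Figure D5:**
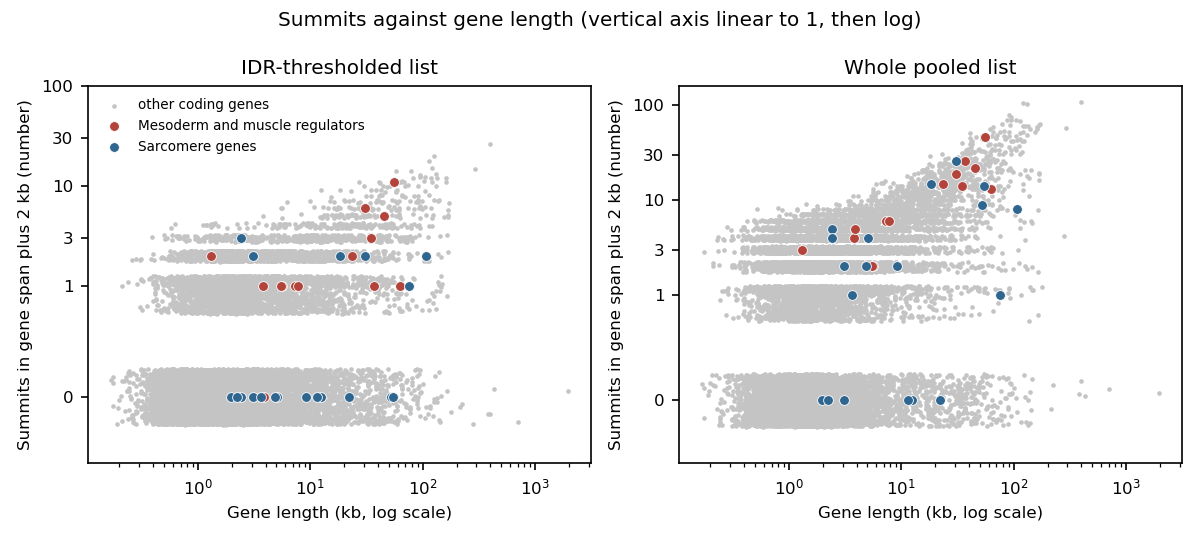
Number of summits in the gene span plus 2 kb against gene length in kb (log axis) for the IDR-thresholded list (left) and the whole pooled list (right). Grey points are all coding genes, moved slightly up or down to separate them, red the 14 regulators and blue the 19 sarcomere genes; the vertical axis is linear to 1 and logarithmic above. In the pooled list pnt, at 46, is the highest member, and 6 sarcomere genes lie at 0.

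Sarcomere genes were divided in the weaker peaks. Tm1 held 26 summits in the pooled list, a number reached by 9.25% of its length class, Actn 15 (26.9%) and Act57B 5 in its 2.4 kb and flanks (12.5%). At the other end sls had no summit in 75.9 kb beyond the 1 at its promoter, and Mhc, Mlc1, Prm, Act79B, Act88F and wupA had none. A lack of any summit in the pooled list was found for 23.8% of the genes in the length class of Mhc and 19.8% in that of wupA and Prm. The shares were 27.9% for Mlc1, 31.0% for Act88F and 36.6% for Act79B. In replicate 3 Mhc had 1 summit, at rank 29323. The other 5 had none in any of the 3 whole lists, as did 26.9% of all coding genes and 17.1% by length class. The share of 5 of 19 (26.3%) is thus near that of all genes and above that of their length classes. No regulator was without a summit in these lists.

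In the weaker part of the pooled list the places were more alike. Of 147 such summits in regulator loci, 46.3% lay in later introns, 18.4% in first introns and 16.3% at the gene's own promoters. Of 81 counted in sarcomere gene loci, the one shared by Tm1 and Tm2 counted for each, 19.8% lay in later introns, 25.9% in first introns and 25.9% at own promoters. Own promoters thus took a larger share at sarcomere genes here too, and introns were a common place in both groups. The shares over all weaker summits were not counted. Sarcomere genes also had more annotated start sites for their length than regulators, and the shares were not matched for this.

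In the share of genes with a locus summit, other genes of the same processes lay between the groups. The 2 wider lists were close to each other and nearer to their length-class means than either member group was. Their summits per 10 kb were 0.638 for mesoderm and muscle formation and 0.616 for contraction and attachment, against 0.596 over all genes. The split between the member groups was thus not seen in these lists. At promoters, where 22.9% of all coding genes had a summit, other mesoderm genes lay between the groups too and other contraction genes above both. Of 39 other genes of mesoderm and muscle formation, 23 (59.0%) had a locus summit, with a length-class mean of 51.7%. A promoter summit was present at 9 (23.1%), with a length-class mean of 28.0%. Those with a summit among the 1000 strongest were numb (rank 35), which partitions cell fate in muscle progenitors, the myoblast fusion genes mbc (rank 190) and kirre (rank 227), the receptor gene N (rank 284), the heart and visceral mesoderm gene tin (rank 308) and the T-box gene Doc2 (rank 859). Of 32 other genes of contraction and attachment, 18 (56.2%) had a locus summit, with a length-class mean of 50.8%. A promoter summit was present at 10 (31.2%), with a length-class mean of 28.1%. Here the strongest were at Tina-1 (rank 80), the paxillin gene Pax (rank 168, a promoter shared with Alp12 and CG13085), CAP (rank 459), the cytoplasmic actin gene Act5C (rank 464), the integrin gene if (rank 901) and the non-muscle myosin light chain gene sqh (rank 961).

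Next to the members' start sites, A/T content was close with and without a summit within 500 bp. From 250 bases before to 50 after a TSS, the median A/T content was 55.3% at the 7 sarcomere start sites with a summit within 500 bp and 56.7% at the 49 without. For regulators the medians were 51.0% at 3 start sites and 52.8% at 28. Over all coding start sites they were 63.3% with a summit and 60.0% without. The measured stretch left out many of the summits themselves. All 3 regulator promoter summits lay further upstream, as did the strongest at Act87E, Tm1, sls and Msp300. The medians therefore do not describe the DNA at those summits.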

How the data were processed

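ChIP-seq peaks of Lola-RJ-GFP in 0 to 12 h embryos were taken as 4 lists on dm6. Per the submitters' file records, peaks were called in each replicate and in both pooled, each with a control alignment, and a further list was thresholded by IDR; the labels give sonication to fragments of 200 to 800 bp. The antibody field of the labels lists lola, while their description names anti-GFP. Read depth, aligner and caller are not given in the sources used here. Signal values deposited by the authors have no stated scale and only ranked and described peaks within a list. The −log10 q value deposited by the authors was not used for ranking. The summit offset deposited by the authors placed each peak.

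Genes came from Ensembl release 115 (BDGP6.54, the dm6 sequence), and sequence from the RefSeq copy of that assembly. Promoter (500 bp) and locus (2 kb flank) summits were counted for every coding gene with Python 3.11.15, numpy 2.4.6 and pandas 2.3.3, and figures drawn with matplotlib 3.10.9; the counting was checked on simulated summits. The printed windows are at the strongest summits outside arm 2R. Peaks were matched between lists by summits within 100 bp. All 33 members are described, and neighbours are named where a summit counted for a member lay at their promoter. Of 73 symbols in the 2 lists of other genes, 2 duplicated another. Members and lists were chosen with earlier results of these data known, and the A/T run length of 8 after seeing the windows. Alternatives were other lists, each replicate alone, other windows and flanks, peak intervals, all transcript starts, 20 length classes and, chosen after seeing the data, the 200 genes nearest in length and twi without its longest transcript.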

Additional observations from a re-analysis of the deposited data

How the results depend on the processing

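The number of regulators with a locus summit, 13 of 14, stayed between 9 (no flank) and 14 (5 kb flank, whole pooled list) under all alternatives, and between 13 and 14 with either replicate left out. The number of sarcomere genes with a locus summit, 6 of 19, was 13 in the whole pooled list and 6 to 14 with a replicate left out. It was 4 to 8 under the other settings, 4 with no flank and 8 with a flank of 5 kb. The share of all coding genes changes with the flank too and is given here for the 2 kb flank only. Without the longest twi transcript, a setting chosen after seeing the data, 12 regulators had one. Leaving out summits at a neighbour's promoter gave 13 regulators and 5 sarcomere genes. Promoter counts moved too. Regulators, 3 of 14, numbered 9 in the whole pooled list, 0 within 250 bp, 6 within 1000 bp and 4 to 11 with a replicate left out. Sarcomere genes, 5 of 19, numbered 10 in the whole pooled list, 3 within 250 bp and 4 to 10 with a replicate left out. The higher counts came from whole lists of 30000 peaks, which are longer by construction. Length-matched shares for loci were 53.2% and 50.6% with 20 classes, and 51.6% and 50.8% over the 200 nearest genes. No paired analysis was possible because the 2 replicates form 1 group and no test was run. Read depth and a mock precipitation were not used here, and a locus summit may belong to a neighbouring gene.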
